A study of Mus musculus with 6 samples.

Results

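The 10 genes studied here belong to the immediate early response and were followed by RNA-seq of neural stem cells (NSCs) from embryos with and without a conditional knockout of the microRNA miR-151: *Fos*, *Fosb*, *Fosl1*, *Fosl2*, *Jun*, *Junb*, *Jund*, *Egr1*, *Egr2* and *Ier2*. They were chosen by name, and their symbols were looked up among the Ensembl gene IDs of the count table, which holds 10 of 10 members among 32493 genes. The NSCs came from the cortex of C57BL/6J embryos at E14.5 and were cultured for 3 generations before their mRNA was sequenced. The conditional knockout (cko) embryos had miR-151 alleles flanked by loxP sites together with Emx1-IRES-Cre, in which the *Emx1* locus drives Cre recombinase in the dorsal telencephalon, so cells of other origin keep the alleles. The control (ctrl) embryos were littermates with the same floxed alleles and no Cre, which the sample labels call wild type. Total counts were 22773559 and 18950862 in ctrl libraries 1 and 3, and 17883796, 23335736 and 21736269 in cko libraries 1, 2 and 3. For ctrl replicate 2 the table holds the rounded mean of the other ctrl columns in 32493 of 32493 genes, so that column was left out and 3 cko libraries were compared with 2 ctrl libraries. *Mir151* itself has no row in the table, so the loss of the microRNA could not be checked in these counts.

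Immediate early genes are transcribed within minutes of a growth factor, calcium or stress signal, without new protein synthesis. FOS and JUN proteins pair through leucine zippers to form the transcription factor AP-1, while EGR proteins bind GC-rich DNA through zinc fingers, and both act downstream of ERK and JNK kinases. In neural cells they are widely used as a record of recent stimulation, and cultured NSCs are kept under steady growth factor signalling.

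At a Benjamini-Hochberg adjusted p under 0.05 over all 16710 genes tested by edgeR's quasi-likelihood test, 3 of the 9 tested members were lower in cko NSCs (*Fosl2*, *Egr2* and *Junb*), beside 8.57% of all tested genes. In the other direction edgeR called 0 members higher, beside 7.86% of all tested genes. DESeq2 likewise called 0 higher, and at an unadjusted p under 0.05 in edgeR 1 member, *Jund*, was higher. Over all tested genes 1432 were lower and 1314 higher, against 416 and 317 without cko library 2, 457 and 336 without cko library 3, and 907 and 853 without cko library 1, with 2, 2 and 3 members lower. Without ctrl library 1 the counts were 2062 lower and 1681 higher, and without ctrl library 3 they were 1760 and 1812, with 3 members lower in each. The remaining member, *Fosl1*, had too few counts to be tested. The median log2 fold change of the 9 members, cko over ctrl, was -0.11, and that of all tested genes was -0.0026. At a log2 fold change beyond 0.9 with an unadjusted p under 0.01, 2 members passed, *Fosl2* and *Egr2*, both lower, where 4.17% of tested genes passed as lower and 2.39% as higher. Every cko library lay below both ctrl libraries for 4 of the 9 members, beside 24.3% of tested genes, and above both for 1 of the 9, beside 25.4%. In bulk RNA, fewer cells that express a gene and less RNA of that gene per cell cannot be told apart. For the RNA-seq libraries, the sources do not say whether those of a genotype came from separate embryos, so the p-values measure the spread between these libraries, and an exact permutation test of 2 against 3 libraries cannot give a p below 0.1.

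**Figure D1:**
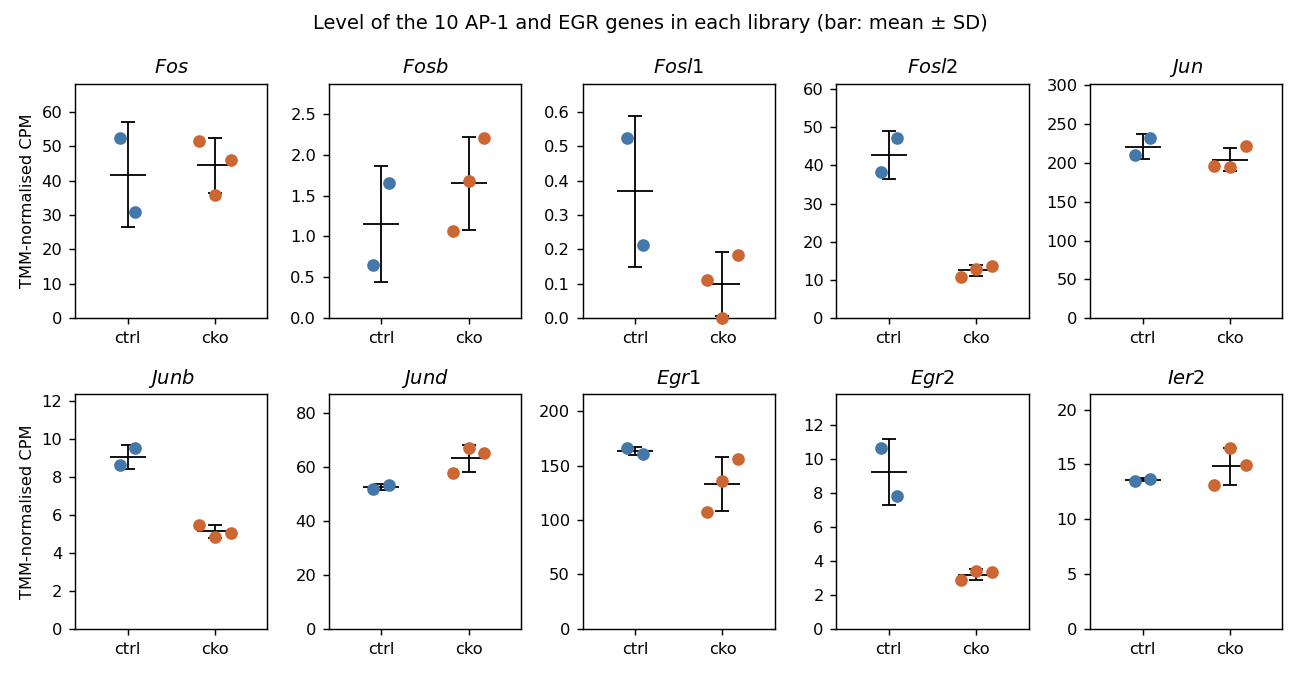
Level of each of the 10 genes in TMM-normalised CPM (vertical axis, from 0) in 2 ctrl libraries (blue) and 3 cko libraries (orange), with black bars for the mean ± SD. The cko points lie well apart from the ctrl points for *Fosl2*, *Junb* and *Egr2*, and among the ctrl points or across them for *Fos*, *Jun* and *Ier2*.

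*Fosl2* (ENSMUSG00000029135; chromosome 5, 32135801 to 32157842 on the plus strand in GENCODE M21 on GRCm38) encodes FRA2, a FOS protein that lacks the strong activation domain of FOS itself. Its level, in counts scaled to library size (CPM, normalised by TMM), was 38.3 and 47.2 CPM in ctrl libraries 1 and 3, and 10.9, 12.9 and 13.7 CPM in cko libraries 1, 2 and 3. All cko libraries were far below both ctrl libraries, and the libraries within each genotype were close together. *Fosl2* fell by 1.77 on the log2 scale (SE 0.14, 95% confidence interval -2.10 to -1.44, edgeR adjusted p = 0.00106), which is a 3.41-fold lower level in cko NSCs. Over the 12 alternative fits its log2 fold change ranged from -1.92 to -1.61, with an adjusted p of at most 0.0135.

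*Egr2* (ENSMUSG00000037868; chromosome 10, 67535475 to 67542188, plus strand), also known as Krox20, encodes a zinc finger factor that is best known from hindbrain patterning and from myelination by Schwann cells. The ctrl libraries held 10.6 and 7.84 CPM, and the cko libraries 2.85, 3.39 and 3.35 CPM. The genotypes did not overlap, and the lower ctrl library still lay well above the highest cko library. *Egr2* fell by 1.53 on the log2 scale (SE 0.21, 95% confidence interval -2.01 to -1.04, edgeR adjusted p = 0.00472), or 2.88-fold. Its adjusted p was at most 0.0338 in the 12 alternative fits.

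*Junb* (ENSMUSG00000052837; chromosome 8, 84974484 to 84978718, minus strand) encodes a JUN protein that activates transcription less strongly than JUN and can hold back growth. The ctrl libraries gave 8.60 and 9.50 CPM, against 5.48, 4.84 and 5.06 CPM in the cko libraries. Here, too, the genotypes did not overlap, with a smaller gap than for *Fosl2* and *Egr2*. *Junb* fell by 0.82 on the log2 scale (SE 0.17, 95% confidence interval -1.21 to -0.43, edgeR adjusted p = 0.0179), or 1.77-fold. Without cko library 2 the edgeR adjusted p was 0.0904, at a log2 fold change of -0.79. Without cko library 3 it was 0.088, at -0.82. A block for the replicate number also ended the call (edgeR adjusted p = 0.0698, log2 fold change -0.78). Over all 12 alternatives the adjusted p lay between 2e-05 and 0.0904. Of its 2301 exonic bases, 173 overlap *Prdx2* on the opposite strand, whose reads cannot be told apart from those of *Junb* if strand was not used in counting.

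**Figure D2:**
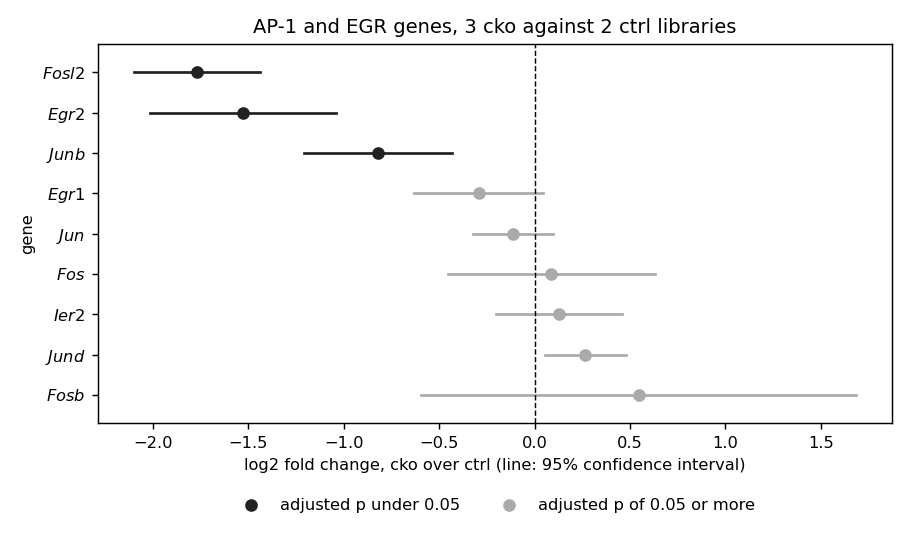
Log2 fold change of the 9 tested genes (horizontal axis, cko over ctrl, 0 dashed) with its 95% confidence interval from edgeR. Black marks calls at an adjusted p under 0.05 and grey the rest, and only *Fosl2*, *Egr2* and *Junb* are black, at -1.77, -1.53 and -0.82.

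RefSeq promoter windows on GRCm38, from 250 bases before to 50 bases after a start site, were at hand for 7 of the 10 members (*Jun*, *Fosl2*, *Fosb*, *Jund*, *Junb*, *Egr2* and *Fos*) in 11 windows, of which 5 belong to *Egr2*. The motifs searched, on both strands, were the CArG box bound by SRF, the cAMP response element TGACGTCA, the AP-1 motif TGANTCA, the EGR motif GCGNGGGCG and the TATA motif TATAAA. They are found in 1.63%, 1.79%, 7.81%, 5.55% and 13.6% of all 32851 windows. A CArG box was found in 4 of the 5 *Egr2* windows, at 2 separate places. The EGR motif was found in the *Fosl2* window, 79 bases before the start site, and in the *Fosb* window, 50 bases before it. The TATA motif was found in the *Junb* and *Fos* windows, and the *Jun* and *Jund* windows held none of the searched letters. No window held more than 1 of the motifs, so no matches overlap. A match is a string of letters and was not tested as a binding site.

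The sequences of the called members are shown with the matched motif in capitals, and that of *Fos*, a member not called, for comparison. *Egr2* is given at chr10:67537619-67537868 on the plus strand, the bases before the start of an annotated transcript, with the CArG box in capitals. *Junb* is given at chr8:84978719-84978998 on the minus strand with the TATA motif in capitals, at the RefSeq start site and 30 bases before the first base of the GENCODE transcript. *Fos* is given at chr12:85473640-85473889 on the plus strand with the TATA motif in capitals. The *Fosl2* window lies inside an annotated exon, and 30 bases of it are given, at chr5:32136383-32136412 on the plus strand, with the EGR motif in capitals.
Egr2: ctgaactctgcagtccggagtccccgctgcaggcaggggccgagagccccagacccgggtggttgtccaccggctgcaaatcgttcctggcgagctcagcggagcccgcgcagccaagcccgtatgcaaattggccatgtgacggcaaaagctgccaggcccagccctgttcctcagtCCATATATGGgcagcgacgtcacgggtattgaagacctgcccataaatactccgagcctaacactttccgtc
Junb: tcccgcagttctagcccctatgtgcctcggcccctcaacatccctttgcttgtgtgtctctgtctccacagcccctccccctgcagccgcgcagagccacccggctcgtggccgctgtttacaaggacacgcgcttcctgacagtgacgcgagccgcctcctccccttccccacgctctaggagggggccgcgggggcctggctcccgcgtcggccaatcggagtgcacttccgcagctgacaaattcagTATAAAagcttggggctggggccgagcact
Fosl2: ccggctgcgcGCGGGGGCGgaagggcgcgc
Fos: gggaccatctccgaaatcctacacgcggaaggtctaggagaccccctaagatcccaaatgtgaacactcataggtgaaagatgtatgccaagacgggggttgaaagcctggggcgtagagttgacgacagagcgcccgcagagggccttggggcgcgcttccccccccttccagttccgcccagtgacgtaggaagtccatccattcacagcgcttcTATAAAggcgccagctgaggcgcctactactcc

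*Fos*, the founding member of its family, was measured at 52.5 and 30.9 CPM in ctrl libraries 1 and 3 and at 51.5, 35.9 and 46.1 CPM in cko libraries 1, 2 and 3. The cko values all lay between the ctrl values. Its log2 fold change was 0.09 (SE 0.23, 95% confidence interval -0.45 to 0.63, edgeR adjusted p = 0.831). No change was called, and these libraries cannot exclude a change in either direction within that interval. The ctrl libraries alone differed 1.70-fold, and the sign turned without ctrl library 3 (-0.24) and without cko library 1 (-0.03). *Fosb*, whose product dimerises with JUN like FOS, was low, with 15 and 31 counts in the ctrl libraries and 19, 39 and 48 in the cko group. Its log2 fold change of 0.54 had a 95% confidence interval from -0.60 to 1.69 (edgeR adjusted p = 0.481), and without ctrl library 1 it was -0.0015. *Fosl1*, which encodes FRA1, had 12 and 4 counts in the ctrl libraries and 2, 0 and 4 in the cko libraries, near the floor of 3 counts, which corresponds to 0.129 to 0.168 CPM, and it was left out by the filter on low counts. Of its 2033 exonic bases, 1163 overlap *Ccdc85b* on the opposite strand, so even these counts may not be its own.

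Among the JUN genes, *Jun*, whose product is the most common partner of FOS proteins, held 210 and 233 CPM in ctrl libraries and 197, 195 and 221 CPM in cko libraries. The ranges overlapped, and the log2 fold change was -0.11 (95% confidence interval -0.32 to 0.10, edgeR adjusted p = 0.42). *Jund*, which is expressed in resting cells more than its relatives, held 51.7 and 53.4 CPM in ctrl libraries and 57.5, 66.7 and 65.0 CPM in cko libraries. Every cko library lay above both ctrl libraries, by a small margin for cko library 1. Its log2 fold change was 0.27 (SE 0.09, 95% confidence interval 0.05 to 0.48), and its edgeR adjusted p of 0.088 missed the threshold. With the averaged ctrl column taken as a library, its adjusted p was 0.018 in edgeR and 0.0146 in DESeq2, and over its 12 alternatives it ranged from 0.0146 to 0.291. Both genes have antisense neighbours, since 232 of 3189 exonic bases of *Jun* overlap *Junos* and 877 of 1668 of *Jund* overlap *Gm11175*.

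*Egr1*, a rapid responder to ERK signalling, was measured at 166 and 161 CPM in the ctrl libraries and 107, 136 and 156 CPM in the cko libraries. All cko libraries lay below both ctrl libraries, but cko library 3 was close to them and the cko libraries differed 1.45-fold among themselves. The log2 fold change was -0.29 (SE 0.14, 95% confidence interval -0.63 to 0.04, edgeR adjusted p = 0.206), which passed the threshold in 1 of 12 alternatives, that with no filter on low counts (adjusted p = 0.0231, range over the alternatives 0.0231 to 0.332). *Ier2*, a small nuclear protein gene induced with the others, held 13.5 and 13.7 CPM in the ctrl libraries and 13.1, 16.5 and 15.0 CPM in the cko libraries. The ctrl values lay inside the cko range, and the log2 fold change was 0.13 (95% confidence interval -0.20 to 0.46, edgeR adjusted p = 0.576).

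Levels can be compared between genes only per length, here as CPM per kilobase of annotated exon. *Jun* had the highest level, at 69.3 ± 5.06 CPM per kilobase in ctrl (SD, n = 2) and 64.1 ± 4.61 in cko (SD, n = 3), above every other member in 5 of 5 libraries. *Jund* (31.5 ± 0.713 and 37.8 ± 2.94) and *Egr1* (36.4 ± 0.823 and 29.7 ± 5.46) came next, and their order differed between the genotypes, with *Egr1* above *Jund* in both ctrl libraries and *Jund* above *Egr1* in all 3 cko libraries. *Fos* followed at 17.7 ± 6.48 and 18.9 ± 3.38 CPM per kilobase, and then *Ier2* at 8.94 ± 0.0999 and 9.75 ± 1.11, each apart from its neighbours in this order in all 5 libraries. The 3 members called lower sat below these. *Junb* was at 3.93 ± 0.274 in ctrl and 2.23 ± 0.142 in cko, *Fosl2* at 4.42 ± 0.654 and 1.29 ± 0.150, and *Egr2* at 2.72 ± 0.577 and 0.941 ± 0.0880. *Junb* and *Fosl2* also changed places between the genotypes, with *Junb* above *Fosl2* in 3 of the 5 libraries, while *Fosl2* lay above *Egr2* in 5 of 5. *Fosb* and *Fosl1* were lowest, with overlapping ranges and at most 0.353 CPM per kilobase in any library.

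The make-up of each family follows from these levels and is given as a description. *Fosl2* made up 14.9% and 26.5% of the summed FOS family level per kilobase in the ctrl libraries and 4.85%, 7.88% and 6.62% in the cko libraries. *Fos* itself made up 83.8% and 71.5% in ctrl and 94.2%, 90.5% and 91.3% in cko, while the levels of *Fos* overlapped between the genotypes. Each share depends on both genes. Between the ctrl libraries *Fos* differed 1.70-fold and *Fosl2* 1.23-fold. *Junb* held 3.72% and 3.79% of the JUN family level in ctrl and 2.42%, 2.04% and 1.99% in cko, while *Jund* held 30.8% and 29.3% in ctrl and 35.0%, 38.7% and 35.2% in cko. *Egr2* held 7.38% and 5.73% of the EGR family level, counted with *Egr3* and *Egr4*, in ctrl and 3.34%, 3.11% and 2.70% in cko. In all 5 libraries the most abundant gene of each family per kilobase (*Fos*, *Jun* and *Egr1*) was not among the genes called, and each made up more than the rest of its family together. These shares rest on the length of all annotated exons of a gene, 9680 bases for *Fosl2* and 2352 for *Fos*. Before division by length, the ctrl means of *Fosl2* and *Fos* were close, at 42.7 and 41.7 CPM.

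**Figure D3:**
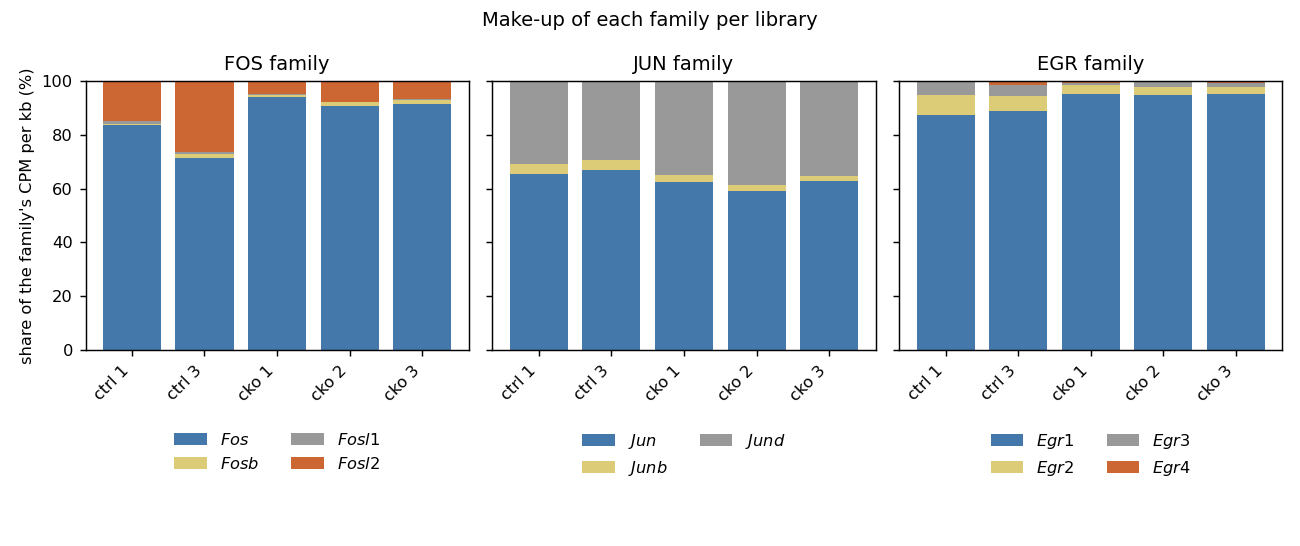
Share of each gene in the summed CPM per kilobase of the FOS, JUN and EGR families (vertical axis, percent) in 2 ctrl and 3 cko libraries, 1 stacked bar a library. The *Fosl2* segment is larger in both ctrl bars (14.9% and 26.5%) than in the cko bars (4.85% to 7.88%).

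Profiles over the 5 libraries were compared by the root mean square (RMS) difference of log2(CPM + 1) values, each gene centred on its own mean. Among the members, *Jund* and *Ier2* were the closest pair (RMS difference 0.0794), and *Fosl2* lay nearest to *Egr2* (0.303). *Fosb* and *Fosl2* were the farthest apart (0.996). The profiles were not scaled, so these differences also depend on how much each gene varied. The RMS of the centred values was 0.145 for *Jund*, 0.113 for *Ier2*, 0.333 for *Fosb*, 0.841 for *Fosl2* and 0.64 for *Egr2*. Outside the members, the 5 genes nearest to *Fos* were *Lrrc1* (0.0585), *AW146154* (0.0645), *Ankrd42* (0.0673), *Gm20515* (0.0687) and *A930006K02Rik* (0.0706). The 5 nearest to *Egr1* were *C79130* (0.0483), *Rras* (0.0487), *Map6* (0.0507), *Gm42047* (0.054) and *4933439C10Rik* (0.0558). With 5 libraries many genes resemble any profile, and likeness says nothing of function.

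A list of 29 other immediate early genes was examined beside the members. Of the 27 that could be tested, edgeR called 9 lower and 3 higher in the cko group (adjusted p under 0.05), beside 8.57% lower and 7.86% higher of all tested genes, and the median log2 fold change was -0.46, beside -0.0026 for all tested genes. *Klf10*, a zinc finger gene induced by TGF-beta, was at 81.7 and 85.7 CPM in ctrl libraries and 27.1, 32.7 and 35.8 CPM in cko libraries (log2 fold change -1.39, adjusted p = 0.00109). *Arc*, a regulator of synaptic receptors, was at 5.46 and 11.4 CPM in ctrl and 1.45, 1.67 and 1.84 CPM in cko (log2 fold change -2.33, adjusted p = 0.00564). For both genes every cko library lay below both ctrl libraries. The clock gene *Per1* (log2 fold change -0.55, adjusted p = 0.00677) and the kinase gene *Sik1* (-1.59, adjusted p = 0.0129) also fell. In the opposite direction, *Btg2*, an antiproliferative gene and the most abundant of the list in CPM, was at 124 and 115 CPM in ctrl and 176, 189 and 187 CPM in cko (log2 fold change 0.62, adjusted p = 0.00355), and *Gadd45g*, a stress response gene, rose as well (0.61, adjusted p = 0.0097). The list thus held calls in both directions. Without cko library 2 or without cko library 3, *Sik1* and *Gadd45g* lost their calls (adjusted p at most 0.0686 and 0.0603), and the counts were 4 lower and 1 higher, and 3 lower and 1 higher. Without cko library 1 they were 5 lower and 2 higher.

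**Figure D4:**
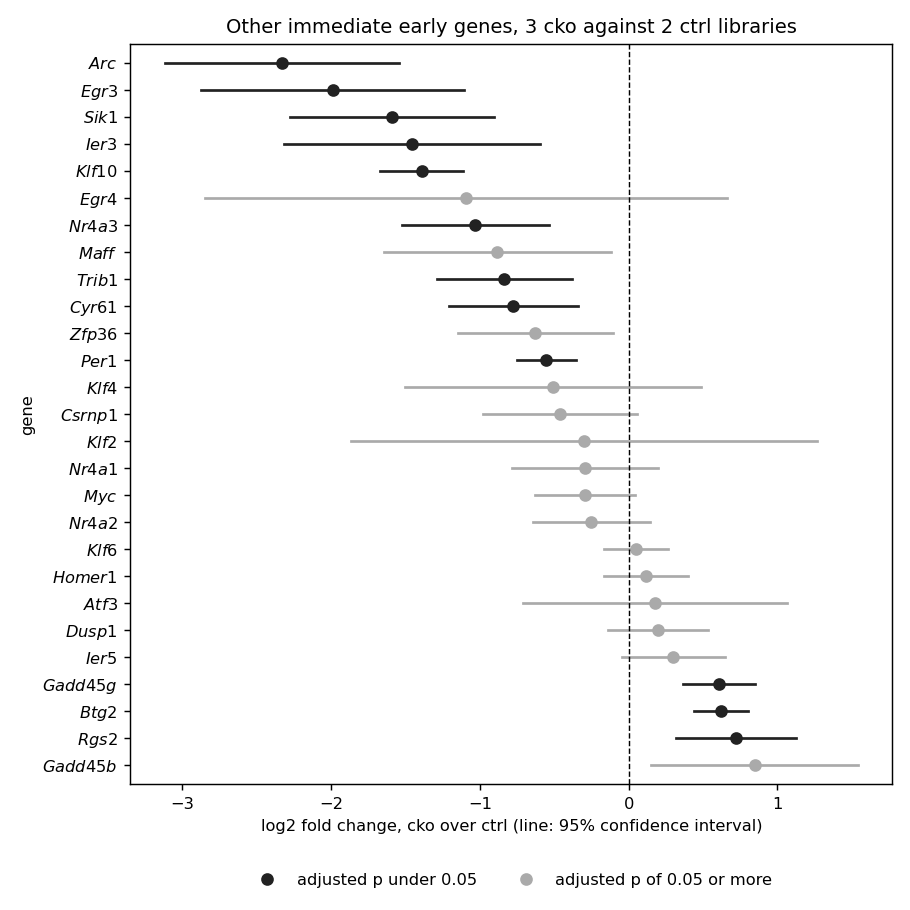
Log2 fold change (horizontal axis, cko over ctrl, 0 dashed) with its 95% confidence interval from edgeR for the 27 tested genes of the list of other immediate early genes. Black marks an adjusted p under 0.05, and the 12 black genes run from *Arc* at -2.33 to *Rgs2* at 0.72.

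Genes that act with the members were examined by role, and some of these lists share genes with each other or with the list above. Among 13 other genes whose products can join AP-1 dimers, 10 were tested, of which 1 was higher and 2 lower, beside 7.86% and 8.57% of all tested genes (median log2 fold change -0.27). The dimer partner gene *Atf7* (log2 fold change -0.53, edgeR adjusted p = 0.00735) and the small MAF gene *Mafg* (-0.46, adjusted p = 0.00831) fell. The call of *Mafg* ended without cko library 2 (adjusted p = 0.0579, the highest of its 12 alternatives). Exons of *Atf7* and *Mafg* overlap *Gm28047* and *Sirt7* on the same strand, so their counts may include reads of these genes. In the EGR list of 5 genes, 4 were tested and 2 were lower, beside 8.57% of all tested genes (median -0.81). *Egr3* and *Egr4* also stand in the list of other immediate early genes, so the call of *Egr3* is counted in both lists. *Egr3*, a close relative of *Egr2*, was at 9.35 and 6.88 CPM in ctrl and 0.951, 2.66 and 2.44 CPM in cko (log2 fold change -1.99, adjusted p = 0.0146), and *Nab2*, a corepressor that EGR proteins recruit, fell by 0.53 on the log2 scale (adjusted p = 0.0404). Their calls ended without cko library 3 for *Egr3* (adjusted p = 0.0597), and without any 1 of the cko libraries or ctrl library 1 for *Nab2* (at most 0.118), which also overlaps 3 genes on the opposite strand.

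The genes that switch the members on were listed by factor and by kinase. Of 11 SRF, ternary complex and CREB factor genes, all tested, 1 was higher and 1 lower, beside 7.86% and 8.57% of all tested genes, with a median log2 fold change of -0.013. These were *Creb1* (0.35, edgeR adjusted p = 0.0326) and the SRF coactivator gene *Mkl2* (-0.52, adjusted p = 0.0192). Of 12 ERK and JNK pathway kinase genes, edgeR called 1, the JNK2 gene *Mapk9*, as lower (-0.33, adjusted p = 0.029), beside the same 8.57% of all tested genes, with a median of 0.00076. The calls of all 3 ended without any 1 of the cko libraries, with adjusted p of at most 0.124, 0.0915 and 0.118, and those of *Creb1* and *Mapk9* also without ctrl library 3. RNA levels do not measure the activity of these kinases.

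Among 9 genes for turnover and silencing of AP-1, 2 were higher and 1 lower, beside 7.86% and 8.57% of all tested genes (median -0.043). *Zfp36l2*, which encodes an RNA-binding protein that destabilises AU-rich transcripts, was at 111 and 114 CPM in ctrl and 79.2, 80.5 and 78.6 CPM in cko (log2 fold change -0.50, edgeR adjusted p = 0.00486). Its relative *Zfp36l1* (0.30, adjusted p = 0.0318) and the JNK and p38 phosphatase gene *Dusp10* (0.64, adjusted p = 0.00781) were higher. Of the 2990 exonic bases of *Zfp36l1*, 1672 overlap the antisense gene *Gm26669*. The call of *Zfp36l1* ended without any 1 of the cko libraries (adjusted p at most 0.161), and that of *Dusp10* without cko library 2 or 3 (at most 0.0552). Of 15 known AP-1 target genes, 8 were tested and edgeR called 2, both lower, beside 8.57% of all tested genes (median -0.41). *Hbegf*, an EGF receptor ligand, was at 21.3 and 30.8 CPM in ctrl and 7.44, 8.14 and 7.12 CPM in cko (log2 fold change -1.78, adjusted p = 0.00195). *Cd44*, the hyaluronan receptor gene, fell by 0.55 on the log2 scale (adjusted p = 0.0328), and its call ended without any 1 of the cko libraries or ctrl library 1 (at most 0.13). The other 7 target genes, among them *Mmp3*, *Il6* and *Ccl2*, had at most 12 counts in any library.

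Immediate early genes can also respond to the handling of cells, and heat shock genes were listed as a second view of stress. Of 10 tested, edgeR called 2, both lower, beside 8.57% of all tested genes, with a median log2 fold change of 0.086. The 2 were *Hspa1a* (-0.94, adjusted p = 0.0321) and *Hspa1b* (-1.0, adjusted p = 0.0392), near-identical copies whose reads cannot be assigned with certainty. Of the 2967 exonic bases of *Hspa1a*, 564 also overlap *Gm20481* on the opposite strand. Both calls ended without any 1 of the cko libraries or ctrl library 1 (adjusted p at most 0.128 and 0.141). *Hspa8*, the most abundant of the list, was at 1342 and 1452 CPM in ctrl and 1667, 1627 and 1513 CPM in cko and was not called. The part of handling in the members' values was not tested.

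Markers of cell types were counted beside the 7.86% of all tested genes called higher and the 8.57% called lower. Of 8 NSC markers, 3 were higher in cko (*Hes5*, log2 fold change 0.93; *Nes*, 0.98; *Prom1*, 0.70) and 1 was lower (*Slc1a3*, -0.79), and their summed level was 7916 and 6971 CPM in ctrl and 8849, 8259 and 8147 CPM in cko, led by *Vim*. Of 8 oligodendrocyte lineage markers, 4 were lower and 1 was higher (*Olig2*, 0.38, whose call ended in 7 of 12 alternatives). Of the markers of this list that were not called, *Pdgfra*, a gene of oligodendrocyte precursors, was at 210 and 145 CPM in ctrl and 268, 227 and 233 CPM in cko (log2 fold change 0.45, edgeR adjusted p = 0.0942), and *Cspg4*, another precursor gene, differed by 0.24 on the log2 scale (adjusted p = 0.594). *Mbp*, which encodes myelin basic protein, was at 139 and 238 CPM in ctrl and 10.5, 9.30 and 11.8 CPM in cko, and *Sox10*, a lineage transcription factor gene, was at 162 and 190 CPM in ctrl and 54.4, 41.2 and 45.3 CPM in cko. *Mag* had 84 and 48 counts in ctrl and 0, 2 and 0 counts in cko. The myelin gene *Mog* was not called, at 28 and 41 counts in ctrl and 25, 52 and 27 counts in cko (log2 fold change -0.05, edgeR adjusted p = 0.947). The summed level of this list was 1562 and 1940 CPM in ctrl and 1402, 1505 and 1479 CPM in cko, led by *Olig2*. Of 6 astrocyte markers, edgeR called 3, all lower (*S100b*, -2.31; *Slc1a2*, -1.03; *Gjb6*, -2.44), with a summed level of 2019 and 1036 CPM in ctrl and 960, 548 and 579 CPM in cko. *Slc1a2* had the highest mean CPM of this list, but *Gfap* led in ctrl library 1, at 1008 CPM against 178 CPM in ctrl library 3, and was not called. Without cko library 2 the calls of *Slc1a3*, *Slc1a2* and *Gjb6* ended, and without cko library 3 those of *Slc1a2* and *Gjb6* (adjusted p at most 0.0536, 0.0625 and 0.0856). Of 5 tested neuron markers, *Syt1* was higher (1.57) and *Dcx* lower (-1.51), and the summed level of the list, led by *Map2*, was 1222 and 1097 CPM in ctrl and 1198, 1188 and 1218 CPM in cko. Thus 4 of 8 oligodendrocyte lineage markers and 3 of 6 astrocyte markers were called lower in cko, beside 8.57% of all tested genes, as *Fosl2*, *Egr2* and *Junb* were, and the part of these cell types in the members' values was not tested.

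Markers of cells outside the neural lineage gave no call in edgeR. None of the 6 microglia markers could be tested, with *Cx3cr1* and *Tmem119* at 0 counts in all 5 libraries and a summed level of at most 0.907 CPM, with *P2ry12* highest by mean CPM and *C1qa* highest in ctrl library 3. Of the endothelial markers, *Cdh5* was at 0 counts, and *Kdr* (0.43, edgeR adjusted p = 0.236) and *Pecam1* (-0.22, adjusted p = 0.821) were not called, with a summed level of 4.15 and 4.80 CPM in ctrl and 5.37, 5.06 and 6.76 CPM in cko. The pericyte and fibroblast markers *Col1a1* (-1.17, adjusted p = 0.141) and *Pdgfrb* (-0.52, adjusted p = 0.565) were not called either, though *Col1a1* was lower at an unadjusted p under 0.05 and passed the threshold in 3 of its 11 alternatives. Their list summed to 3.71 and 4.48 CPM in ctrl and 1.57, 2.06 and 2.30 CPM in cko.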

How the data were processed

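mRNA of cultured NSCs from 3 ctrl and 3 cko samples was sequenced. The authors used NGSQC to filter reads and HISAT2 to align them to mm10, and the values they deposited are raw counts per Ensembl gene, not normalised. Their submission notes name GRCm39, and the counting tool, annotation and use of strand are not given in the sources used here, so overlapping genes and near-identical copies are uncertain. Besides the overlaps given with the genes, *Mkl2*, *Hes5*, *Prom1*, *Slc1a2*, *Zfp36l2*, *Map2*, *P2ry12* and *Pdgfra* overlap exons on the opposite strand. Of the columns deposited by the authors, that of ctrl replicate 2 holds the other kind of value, a rounded-up average of the other ctrl columns, and entered only the alternatives with all 6 columns.

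The analysis used edgeR 4.0.16 in R 4.3.3 (filterByExpr, TMM, quasi-likelihood test), which kept 16710 genes, with p adjusted by Benjamini-Hochberg over all of them. Intervals are at the 95% level, and CPM values are TMM-normalised. Totals of 17883796 to 23335736 counts make 3 counts, taken as the floor, worth 0.129 to 0.168 CPM, a limit that covers counting error only. GENCODE M21 on GRCm38 matched 31836 of 32493 gene IDs and gave symbols, positions and exon lengths, which are not positions from the authors' counting, and 152 of 153 listed genes were found (all but *Cldn5*). Promoter windows are RefSeq's on GRCm38.

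The members and lists were chosen with earlier results of these data known. Named are all members, of each other list up to 6 called genes with the smallest p or, with none called, the 2 most abundant, and for *Fos* and *Egr1* the 5 most similar tested genes with a mean of at least 1 CPM. Some results that this rule gives are not reported here. *Rgs2*, *Egr4*, *Mmp3*, *Il6*, *Ccl2*, *Vim*, *Map2*, *Gfap*, *Pdgfra*, *Cspg4*, *Mog*, *P2ry12*, *C1qa*, *Hspa8* and the markers at 0 were named outside this rule after their values were seen. The alternatives tried were the test of DESeq2 1.42.0, its size factors in edgeR, no filter on low counts, a minimum of 10 counts per library, omission of each library, all 6 columns (also with DESeq2, chosen after seeing the data), a block for the replicate number, and the threshold of a log2 fold change beyond 0.9 with p under 0.01. The test steps were tested on simulated data. Figures were drawn with matplotlib 3.10.9.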

Additional observations from a re-analysis of the deposited data

How the results depend on the processing

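Of the members, *Fosl2* and *Egr2* kept their direction and their side of the threshold in all 12 alternative fits, *Junb* in 9, and *Jun* and *Ier2* stayed uncalled with the same sign in 12. The log2 fold change of *Fos* turned to -0.24 without ctrl library 3 and to -0.03 without cko library 1, in a range up to 0.51, and that of *Fosb* to -0.0015 without ctrl library 1, in a range up to 1.34. With all 6 columns, edgeR called 1 member higher, with 2865 genes higher and 2794 lower, and DESeq2, chosen after seeing the data, 1 member higher, with 2593 and 2630 genes; the averaged column adds no independent sample. With no filter, 2237 genes were lower. At a log2 fold change beyond 0.9 with p under 0.01, 399 genes were higher and 696 lower, and of the other immediate early genes 6 were lower and 0 higher in edgeR.

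Leaving out 1 library gave 317 to 1812 genes higher and 416 to 2062 lower, 2 to 3 members lower and 0 higher, and 1 to 4 other immediate early genes higher and 3 to 11 lower, the lowest counts being those without cko library 2 or 3. Where 1 ctrl library was left, it is assumed to vary like the cko libraries. The labels do not say that replicate numbers mark a litter or batch, and only 2 pairs remain (correlation of deviations across genes 0.2 for number 1 and 0.057 for number 3), so the samples share only a number. The replicate block gave 918 genes higher and 1065 lower, 2 members lower and 0 higher, and 2 other immediate early genes higher and 8 lower, with *Junb* at an adjusted p of 0.0698, and it also ended the calls of *Creb1*, *Mapk9*, *Zfp36l1*, *Cd44*, *Hspa1a*, *Hspa1b* and *Olig2*. Depth limits *Fosl1* and *Fosb* most. Tested in 2 alternatives, *Fosl1* had log2 fold changes of -1.89 with no filter (adjusted p = 0.273) and -2.38 without ctrl library 3 (0.158).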
